A study of Caenorhabditis elegans with 36 samples.

Results

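The 10 autophagy genes described here were chosen by gene ID, among 24931 named genes counted in whole Caenorhabditis elegans. They are unc-51 (Y60A3A.1), bec-1 (T19E7.3), atg-18 (F41E6.13), atg-7 (M7.5), atg-4.1 (Y87G2A.3), atg-16.2 (K06A1.5), lgg-1 (C32D5.9), lgg-2 (ZK593.6), epg-2 (Y39G10AR.10) and sqst-1 (T12G3.1). All 10 passed the filter on low counts in every comparison. RNA from whole animals was sequenced in 36 libraries, 3 in each of 12 groups. The groups were N2, the Bristol wild type; mbl-1(tm1563), mutant in the worm gene for the splicing regulator Muscleblind; and 4 strains with a transgene. Each genotype was sampled as L4, the last larval stage, and as adults 2 days old.

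The transgenic strains all carried an integrated gfp gene driven by myo-3p, a promoter active in muscle, with a 3' UTR that held either 123 or 0 CUG repeats. The 123CUG strains were mgIs64 (strain 1) and mgIs84 (strain 2). The 0CUG strains were mgIs65 (strain 1) and mgIs85 (strain 2). Each strain is 1 integrated line, so a difference between single strains can come from the line as well as from the repeats. The same holds for a difference between constructs, which sets the mean of 2 lines against the mean of 2 lines. Its p-values hold the spread of libraries within strains and not the spread between lines. The study set mbl-1 mutants against N2 and 123CUG against 0CUG animals, at each stage. All animals were synchronised with hypochlorite and fed HT115 bacteria with an empty RNAi vector. The labels do not say whether the 3 libraries of a group came from separate cultures, so p-values measure only how far these libraries spread, and that spread may be technical.

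Autophagy encloses cytoplasm, protein aggregates or organelles in a double membrane, the autophagosome, which then fuses with lysosomes. A kinase (UNC-51) starts the process, a lipid kinase complex that contains BEC-1 marks the membrane, and ATG-18 reads that mark. Ubiquitin-like proteins of the Atg8 family (LGG-1 and LGG-2) are then processed, activated and coupled to the membrane lipid, and adaptors such as SQST-1 and EPG-2 bring cargo to them. Much of the control is at the protein level, and mRNA levels do not measure how fast autophagosomes form or are cleared. In whole-animal RNA, fewer cells of a type and less RNA per cell cannot be told apart.

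Library totals over named genes ran from 25239933 to 47903768 counts, and the lowest count of a member in any library was 183. Levels are given as CPM, counts scaled to a common library size after TMM normalization (trimmed mean of M-values) of all 36 libraries together. mbl-1, counted over the whole gene, had 13.4, 13.7 and 14.3 CPM in N2 labelled L4 against 13.4, 9.63 and 14.6 CPM in mutants labelled L4. In 2-day adults it had 15.4, 17.4 and 33.2 CPM in N2 against 14.25, 13.9 and 10.6 CPM in mutants. The whole-gene level therefore does not check those labels, and reads over the tm1563 lesion were not analysed here. Libraries of N2 and of mbl-1 with the label L4 went against that stage. Their summed yolk genes (vit-1 to vit-6) stood at 100800.0 to 126000.0 CPM, against 1622 to 7933 CPM in the 12 transgenic L4 libraries. Their summed moulting genes stood at 19.2 to 34.4 CPM, against 1571 to 2096 CPM in transgenic L4. They are called "labelled L4" below, and no test sets N2 or mbl-1 against a transgenic strain.

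Among the 2-day adults, the third libraries of N2 and of mbl-1 stood apart from the other libraries of their groups. The summed oocyte and early embryo genes were 9772, 7976 and 4016 CPM in the N2 adults and 3124, 4920 and 9266 CPM in the mbl-1 adults. The summed body wall muscle genes were 3115, 3978 and 7489 CPM in the N2 adults and 11890.0, 9729 and 6597 CPM in the mbl-1 adults. On both lists the third N2 library sat on the side of the first mbl-1 libraries, and the third mbl-1 library sat on the side of the first N2 libraries for oocyte genes. Among these adults the mbl-1 gene itself was highest in the third N2 library and lowest in the third mutant library. Whether these libraries exchanged labels was not tested, since whole-gene counts of mbl-1 do not check them, and it bears on every adult value of these genotypes. Results in adults of these genotypes are given with and without these libraries.

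Per kilobase of the files' gene length, lgg-1 was the most abundant member, with a median of 553 RPKM (CPM per kilobase) over the 36 libraries. lgg-1, the worm GABARAP-like Atg8 protein, lies on chromosome II from 6346957 to 6347719 (WBcel235, minus strand), a gene length of 713 bases. lgg-2, the LC3-like Atg8 protein, followed at a median of 78.5 RPKM and lies on chromosome IV from 10934191 to 10935905. The per-length level of lgg-1 was above that of lgg-2 in 36 of 36 libraries. At the other end epg-2, with a median of 5.10 RPKM, was below its neighbour in the order, unc-51, in 34 of 36 libraries.

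Between these ends the per-length order was less settled. The median level was 49.6 RPKM for atg-18, which encodes a lipid-binding WIPI protein, 32.3 RPKM for sqst-1, 31.9 RPKM for bec-1, 20.8 RPKM for atg-4.1 and 18.3 RPKM for atg-7. It was 14.2 RPKM for atg-16.2 and 14.1 RPKM for unc-51. Neighbours changed places between libraries: atg-18 was above sqst-1 in 21 of 36, sqst-1 above bec-1 in 24 of 36, atg-4.1 above atg-7 in 25 of 36 and atg-16.2 above unc-51 in 20 of 36.

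The members also differed in how far they varied. The highest library stood 8.23 times above the lowest for sqst-1, which encodes the sequestosome adaptor for ubiquitinated cargo. That ratio was 6.89 for lgg-2, 6.80 for unc-51 and 4.92 for lgg-1. It was 2.15 for atg-7, which encodes the enzyme that activates the Atg8 proteins, and between 2.38 and 3.86 for the other members. The other genes lie, in WBcel235 coordinates, on chromosome IV (sqst-1, 12034252 to 12037051; bec-1, 5661142 to 5664427; atg-7, 11078678 to 11081062) and chromosome V (unc-51, 19995987 to 20004487; atg-18, 8629272 to 8631325). atg-16.2 is on chromosome II from 6450930 to 6453391, and atg-4.1 (13536966 to 13542413) and epg-2 (2300084 to 2302824) are on chromosome I.

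**Figure D1:**
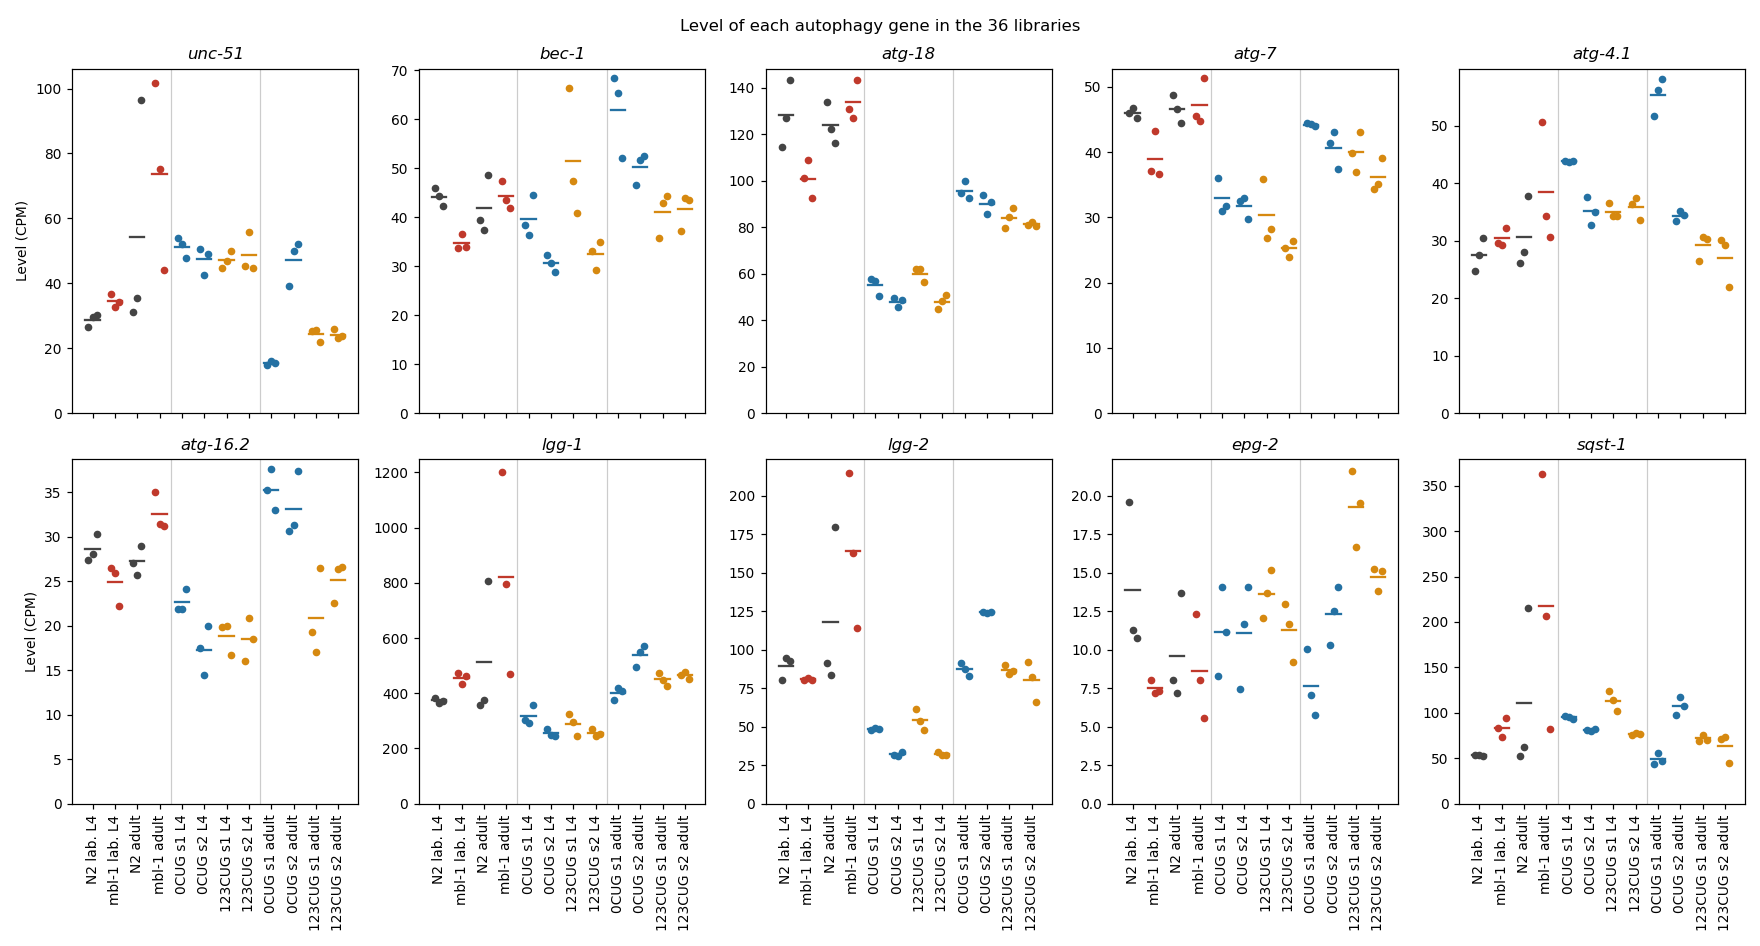
Level of each of the 10 autophagy genes in CPM, 1 point per library and a bar at the mean of the 3 libraries of a group; black is N2, red mbl-1, blue 0CUG and orange 123CUG, with grey lines between the N2 and mbl-1 libraries, the transgenic L4 and the transgenic 2-day adults (lab. L4: labelled L4; s1, s2: strain 1, strain 2). The N2 and mbl-1 adults scatter widely for sqst-1, unc-51, lgg-1 and lgg-2, where the sqst-1 level runs from 52.8 to 363 CPM, and little for atg-7 and atg-18.

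In the libraries labelled L4, sqst-1, lgg-1 and unc-51 were higher in mbl-1 mutants than in N2, and epg-2, bec-1 and atg-18 were lower. sqst-1 measured 53.7, 53.3 and 52.4 CPM in N2 against 83.7, 73.0 and 94.2 CPM in mbl-1, and the groups did not overlap. Its log2 difference was 0.71 (SE 0.0991, edgeR adjusted p = 4.16e-05). epg-2, a coiled-coil protein that in C. elegans embryos links aggregates to the autophagy machinery, measured 19.6, 11.3 and 10.8 CPM in N2 against 8.05, 7.17 and 7.35 CPM in mbl-1. Its log2 difference was -0.84 (SE 0.204, edgeR adjusted p = 0.0035), and the first N2 library was the highest.

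The other 4 members called in the libraries labelled L4 moved by less. lgg-1 measured 382, 366 and 374 CPM in N2 against 474, 433 and 463 CPM in mbl-1, a log2 difference of 0.34 (SE 0.0956, edgeR adjusted p = 0.0079). unc-51, the worm ULK kinase, measured 26.5, 29.7 and 30.3 CPM in N2 against 36.8, 32.6 and 34.1 CPM in mbl-1, a log2 difference of 0.32 (SE 0.103, edgeR adjusted p = 0.0176). The libraries of these genotypes did not overlap for either gene. bec-1, the worm Beclin, measured 45.9, 44.4 and 42.3 CPM in N2 against 33.8, 36.5 and 33.98 CPM in mbl-1, a log2 difference of -0.29 (SE 0.0977, edgeR adjusted p = 0.0212). atg-18 measured 114, 127 and 143 CPM in N2 against 101, 109 and 92.5 CPM in mbl-1, a log2 difference of -0.28 (SE 0.1, edgeR adjusted p = 0.0266).

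These 6 calls stand in a comparison in which 51.4% of the 13264 genes tested were called, 29.7% higher and 21.7% lower in mbl-1, so 3 members higher and 3 lower is near the background. The median log2 difference was -0.11 over the members and 0.03 over all genes tested. atg-7, atg-16.2, atg-4.1 and lgg-2 were not called, with log2 differences of -0.18, -0.14, 0.20 and -0.08. All 6 calls were lost, with no change of direction, when the 12 N2 and mbl-1 libraries shared 1 estimate of the spread (edgeR adjusted p from 0.102 for atg-18 to 0.569 for unc-51). Over all genes the calls went from 6821 to 996 in that fit of 12 libraries. Without N2 replicate 2, or without mbl-1 replicate 1, 2 members were called, among 5095 and 5117 genes. DESeq2 called 5 members, without unc-51 (log2 0.26, adjusted p = 0.0521).

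Tissue lists moved in the same comparison. In mutants labelled L4 every muscle gene (16 of 16) was higher, as were 11 of 15 genes of neurons and 5 of 6 of the intestine, and 12 of 15 oocyte and early embryo genes were lower. The summed oocyte level ran from 7829 to 10440.0 CPM in N2 against 4676 to 7219 CPM in mutants, and the muscle sum from 2502 to 2759 CPM against 6690.0 to 9671 CPM. The part of these shifts in the autophagy genes was not tested.

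Other genes of the pathway were also called in the libraries labelled L4. Among all genes tested there, 29.7% were called higher and 21.7% lower in mbl-1. Of 19 other autophagy machinery genes, 0 rose and 5 fell in mbl-1, with a median log2 difference of -0.20. The falls with the largest size were those of vps-15, the regulatory subunit of the VPS-34 lipid kinase complex (log2 -0.45, SE 0.111, edgeR adjusted p = 0.00375), and epg-8, its ATG14-like subunit (log2 -0.41, SE 0.0992, edgeR adjusted p = 0.00313). Both belong to the complex that contains BEC-1, which was not tested as a set. Of 28 lysosomal genes, 15 rose and 4 fell, among them lmp-2, a lysosomal membrane protein, with 5.86 ± 0.697 CPM in N2 against 11.98 ± 1.75 CPM in mbl-1 (SD, n = 3; log2 1.09, edgeR adjusted p = 5.01e-05). Most of the 28 lysosomal genes (vha-1 to vha-20) encode proton pump subunits, so counts over that list largely describe the pump. Of 11 regulators, 2 rose and 3 fell. hlh-30, the worm TFEB that activates autophagy and lysosomal genes, rose (log2 0.37, SE 0.11, edgeR adjusted p = 0.0113), and let-363, the worm TOR kinase, fell by 0.29 (SE 0.0981, edgeR adjusted p = 0.0227).

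In 2-day adults no member was called between mbl-1 and N2, and in that comparison 0% of the 13286 genes tested were called. None of the 10 members and 695 of all genes had an unadjusted p under 0.05 by edgeR, and DESeq2 called 0 members and 108 genes. sqst-1 measured 52.8, 63.0 and 216 CPM in N2 adults against 363, 207 and 81.8 CPM in mbl-1 adults. The third library of each genotype lay toward the other genotype, so the groups overlapped and the log2 difference of 0.97 had an SE of 0.730 (edgeR adjusted p = 0.91).

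The same libraries stood apart for unc-51, lgg-1 and lgg-2. unc-51 measured 31.2, 35.5 and 96.5 CPM in N2 adults against 102, 75.2 and 44.0 CPM in mbl-1 adults. lgg-1 measured 357, 374 and 806 CPM in N2 adults against 1200.0, 796 and 470 CPM in mbl-1 adults. lgg-2 measured 91.4, 83.4 and 180 CPM in N2 adults against 215, 163 and 114 CPM in mbl-1 adults. For each of these 3 genes the third N2 library was above the third mbl-1 library. epg-2 and atg-4.1, the cysteine protease that trims Atg8 proteins, leaned the same way by less: the third N2 library stood above the mean of the other N2 adults by 0.85 and 0.48 on the log2 scale. The remaining members barely followed: for atg-7, atg-18, atg-16.2 and bec-1 the third N2 library differed from the others by between -0.14 and 0.34 on the log2 scale.

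Without the third library of both adult groups, 5 members were higher in mbl-1 than in N2 and none was lower. The log2 difference was then 2.35 for sqst-1 (SE 0.267, edgeR adjusted p = 0.00334), 1.51 for lgg-1 (SE 0.202, edgeR adjusted p = 0.00455) and 1.47 for unc-51 (SE 0.172, edgeR adjusted p = 0.00356). It was 1.17 for lgg-2 (SE 0.159, edgeR adjusted p = 0.00474) and 0.70 for atg-4.1 (SE 0.195, edgeR adjusted p = 0.0347). Over all genes 2957 were then higher and 1459 lower, so the members' calls stand among many. These libraries were left out because they stand apart on the tissue lists and on the genes themselves, which makes the second set of values a description of 2 libraries against 2.

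Tissue lists followed the same libraries. In the 3 adult libraries with the highest sqst-1 levels (the third of N2, the first and the second of mbl-1) the oocyte sum was 4016, 3124 and 4920 CPM, against 7976 to 9772 CPM in the other 3 N2 and mbl-1 adults. Transgenic adults had oocyte sums of 3748 to 5615 CPM and sqst-1 levels of 44.2 to 117 CPM. The part of tissue proportion in the N2 and mbl-1 differences was not tested.

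**Figure D2:**
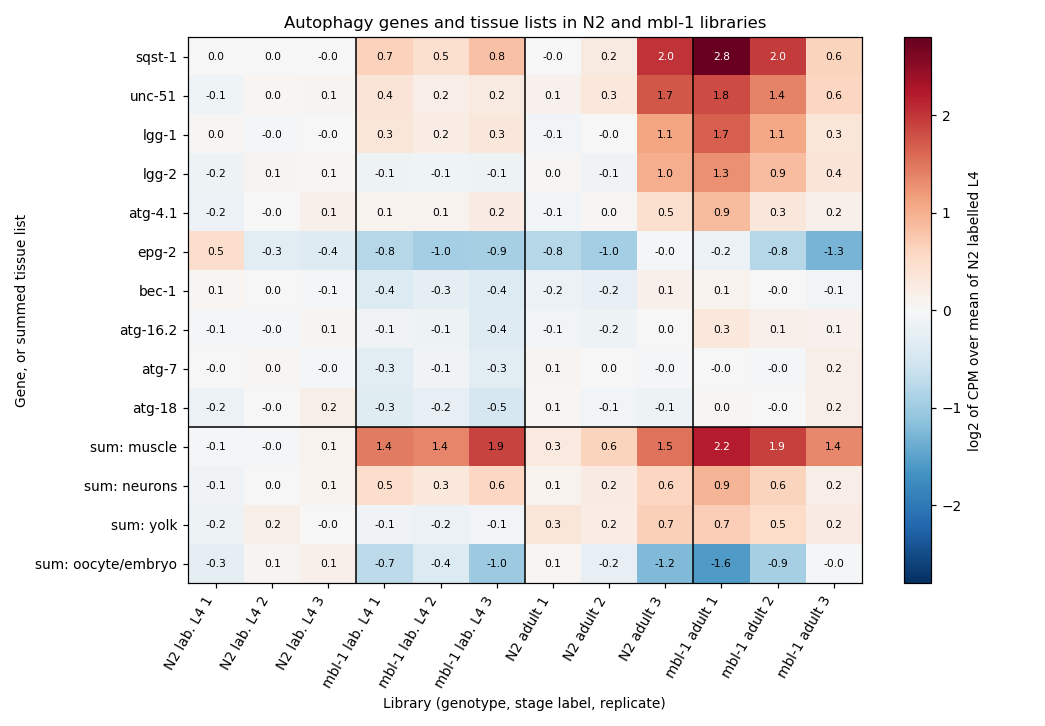
Heat map of the 12 N2 and mbl-1 libraries, 1 column each, as the log2 of the CPM level over the mean of the N2 libraries labelled L4; rows are the 10 autophagy genes and, below the line, the summed CPM of 4 tissue lists, and red is higher and blue lower. For sqst-1, unc-51, lgg-1 and lgg-2 the third N2 adult library resembles the first and second mbl-1 adults, with high muscle and low oocyte sums, while atg-7 and atg-18 stay close to 0 in all adults.

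Between 2-day adults and libraries labelled L4 no member was called in N2, where 0% of 14027 genes were called (1 member and 2098 genes at an unadjusted p under 0.05 by edgeR; DESeq2 called 0 members). In mbl-1 no member was called either, and 0.563% of genes were. There 8 of 10 members had an unadjusted p under 0.05, as did 2066 of 14027 genes, and DESeq2 called 630 genes and 1 member, lgg-2, at 80.6, 81.7 and 80.5 CPM in the libraries labelled L4 and 114 to 215 CPM in adults. Without the third adult libraries 8 members were called higher in mbl-1 adults, led by sqst-1 (log2 1.76), unc-51 (1.35), lgg-2 (1.21) and lgg-1 (1.12), and 0 in N2. Over all genes that fit called 2026 higher and 920 lower in mbl-1 adults. The number of all genes called in N2 in that fit is not given here, so the 0 members in N2 cannot be set against a background. For the stage difference of the mbl-1 effect edgeR called 0 members and 0.00713% of genes (3 members at an unadjusted p under 0.05; DESeq2 called 0 members), and 6 members among 879 genes without the third libraries. The third libraries were left out partly for their levels of these genes, so values without them are a description and not a test.

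In the transgenic strains the L4 and adult libraries matched their labels on the yolk and moulting lists. Adults of both constructs had higher CPM of lgg-1, lgg-2, atg-7 and atg-18. CPM is a share of the library after scaling and not an amount of mRNA per animal. unc-51 and sqst-1 were lower over the mean of each construct's strains, with 0CUG strain 2 as an exception given below. In the 0CUG strains 6 members rose and 2 fell from L4 to adult, and in the 123CUG strains 6 rose and 3 fell. Almost all genes change between these stages: 82.7% of 17248 genes were called in the 0CUG and 82.6% in the 123CUG strains. The median gene fell, with a log2 difference of -0.48 in 0CUG and -0.41 in 123CUG, against medians of 0.54 and 0.37 over the members. Higher calls made up 34.4% of all genes in 0CUG and 35.5% in 123CUG, and lower calls 48.3% and 47.1%.

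lgg-2 rose most. It ran from 31.2 to 49.1 CPM in the 6 0CUG L4 libraries, with a median of 40.6, and from 82.8 to 125 CPM in the 6 0CUG adults, with a median of 108. The log2 change was 1.40 (SE 0.0723, edgeR adjusted p = 1.02e-15) in 0CUG and 0.997 (SE 0.0719, edgeR adjusted p = 1.15e-12) in 123CUG, where adults ran from 66.3 to 92.1 CPM. lgg-1 rose by 0.71 (SE 0.0711, edgeR adjusted p = 8.07e-10) in 0CUG and 0.75 (SE 0.0712, edgeR adjusted p = 3.15e-10) in 123CUG on the log2 scale, from 244 to 358 CPM in all 12 transgenic L4 libraries to 377 to 573 CPM in all 12 adults. For both Atg8 genes L4 and adult libraries did not overlap.

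The genes that act on the Atg8 proteins divided. atg-7 rose in both constructs, by 0.39 (SE 0.0793, edgeR adjusted p = 6.93e-05) in 0CUG and 0.46 (SE 0.0798, edgeR adjusted p = 9.76e-06) in 123CUG on the log2 scale, from 23.97 to 36.1 CPM in L4 to 34.4 to 44.4 CPM in adults. atg-16.2, part of the complex that places Atg8 proteins on the membrane, rose by 0.79 (SE 0.109, edgeR adjusted p = 3e-07) in 0CUG. In 123CUG its change was 0.30 (SE 0.110, edgeR adjusted p = 0.0148), a call lost with DESeq2 (log2 0.23, adjusted p = 0.0666) with RLE scaling, and when any of 4 libraries was left out. atg-4.1 was not called in 0CUG (log2 0.15, edgeR adjusted p = 0.0689) and fell by 0.34 in 123CUG (SE 0.0773, edgeR adjusted p = 0.000308). In 0CUG strain 1 the atg-4.1 mean was 43.8 CPM in L4 and 55.3 CPM in adults, and in 0CUG strain 2 it was 35.15 and 34.3 CPM.

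Of the 2 genes of the membrane-marking step, atg-18 rose in both constructs, by 0.85 (SE 0.0589, edgeR adjusted p = 4.67e-13) and 0.62 (SE 0.0589, edgeR adjusted p = 2.79e-10) on the log2 scale. It ran from 44.7 to 62.2 CPM in transgenic L4 and from 79.5 to 99.8 CPM in adults, with no overlap. bec-1 rose in 0CUG (log2 0.68, SE 0.101, edgeR adjusted p = 9.22e-07). In 123CUG its log2 change was 0.01 (95% interval -0.18 to 0.21, edgeR adjusted p = 0.905), with 29.3 to 66.4 CPM in L4 and 35.8 to 44.4 CPM in adults. That value averages strains whose means went opposite ways. In 123CUG strain 1 the bec-1 mean was 51.6 CPM in L4 and 41.1 CPM in adults, with overlap. The first L4 library of that strain, with 9.97% rRNA, stood at 66.4 CPM. The others stood at 47.5 and 40.8 CPM, so the lower adult mean leans on that library. In 123CUG strain 2 it was 32.4 CPM in L4 and 41.6 CPM in adults, with no overlap.

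unc-51 and sqst-1, the kinase and the cargo adaptor, were lower in adults over the mean of each construct's strains, but not in every strain. unc-51 ran from 42.5 to 55.8 CPM in transgenic L4 and fell by 0.87 (SE 0.0841, edgeR adjusted p = 4.84e-10) in 0CUG and 0.99 (SE 0.0845, edgeR adjusted p = 4.09e-11) in 123CUG. sqst-1 fell by 0.47 in 123CUG (SE 0.0889, edgeR adjusted p = 3.1e-05). In 0CUG it fell by 0.27 (SE 0.0886, edgeR adjusted p = 0.00672), a call lost when any of 3 adult 0CUG libraries was left out (edgeR adjusted p from 0.0591 to 0.07). In 0CUG strain 2 sqst-1 went the other way, from 80.7, 80.1 and 82.2 CPM in L4 to 97.9, 117 and 108 CPM in adults with no overlap. The mean of unc-51 in that strain was 47.4 CPM in L4 and 47.0 CPM in adults. The stage change was not tested within single strains. epg-2 rose in 123CUG (log2 0.44, SE 0.163, edgeR adjusted p = 0.0154), a call lost when either of 2 123CUG libraries was left out, and was not called in 0CUG (log2 -0.20, edgeR adjusted p = 0.261). Its mean went from 11.2 to 7.63 CPM in 0CUG strain 1 and from 11.1 to 12.3 CPM in 0CUG strain 2.

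**Figure D3:**
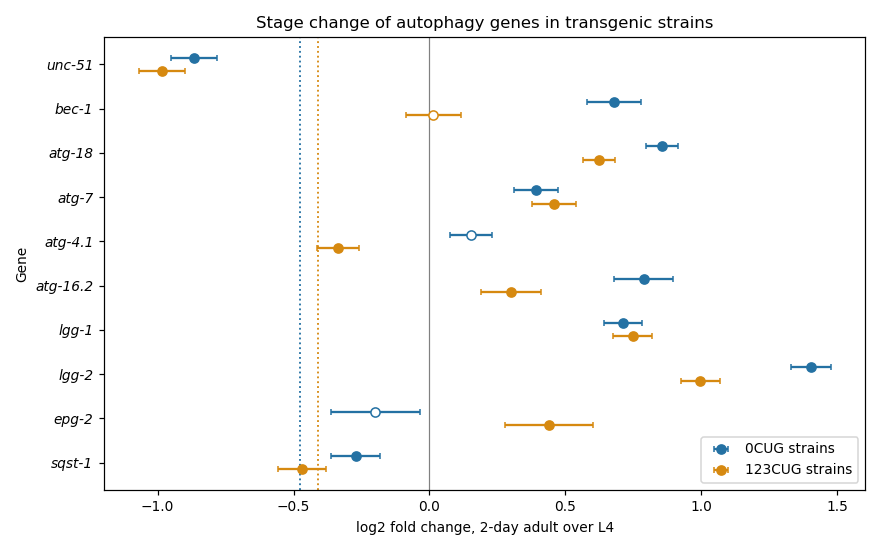
Log2 fold change of each autophagy gene from L4 to 2-day adult with its SE, in the 0CUG strains (blue) and the 123CUG strains (orange), 6 libraries per stage and construct; filled points passed an adjusted p of 0.05 and dotted lines mark the median of all genes. lgg-2, atg-18, lgg-1 and atg-7 lie right of 0 in both constructs, unc-51 and sqst-1 left of 0, and bec-1 and atg-4.1 separate between constructs.

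The other pathway genes also changed with stage. Of 19 other machinery genes, 10 rose and 3 fell in 0CUG, and 11 rose and 5 fell in 123CUG. epg-4, an endoplasmic reticulum membrane protein of a late autophagosome step, rose by 1.85 (0CUG, edgeR adjusted p = 1.12e-15) and 1.63 (123CUG, edgeR adjusted p = 1.38e-14) on the log2 scale. epg-5, which tethers autophagosomes to late endosomes and lysosomes, fell by 0.91 in each construct (edgeR adjusted p = 2.53e-07 and 2.81e-07). sepa-1, which encodes a P granule component receptor, had 0 counts in all 6 123CUG L4 libraries and 5.496 ± 1.67 CPM in the adults (SD, n = 6).

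The lysosomal genes, mostly proton pump subunits (vha-1 to vha-20), and the regulatory genes had their own directions. Of 28 lysosomal genes, 5 rose and 22 fell in 0CUG and 6 rose and 22 fell in 123CUG, with medians of -0.97 and -0.93 on the log2 scale. vha-15, a proton pump subunit, fell from 393 ± 24.4 to 134 ± 27.5 CPM in 0CUG (SD, n = 6; edgeR adjusted p = 2.76e-16), and vha-18, another subunit, rose from 4.39 ± 1.35 to 90.8 ± 15.6 CPM in 123CUG (SD, n = 6; edgeR adjusted p = 4.66e-21). Of 11 regulators, 7 rose and 4 fell in each construct. mxl-3, a repressor that opposes HLH-30, fell by 1.81 in 0CUG (SE 0.108, edgeR adjusted p = 3.13e-14) and 1.67 in 123CUG (SE 0.108, edgeR adjusted p = 1.44e-13), and hlh-30 itself fell by 1.57 in 0CUG (SE 0.106, edgeR adjusted p = 3.16e-13). In adults all 15 oocyte and early embryo genes and all 6 yolk genes rose and all 16 muscle genes fell in both constructs, and their part in the autophagy genes' stage change was not tested.

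At L4, 123CUG and 0CUG animals showed no called difference in any autophagy gene, in a comparison in which 14.4% of 16210 genes were called. By edgeR 2 members and 4379 genes had an unadjusted p under 0.05, and DESeq2 called 0 members. The 2 members were bec-1, with a log2 difference of 0.26 (95% interval 0.06 to 0.46, edgeR adjusted p = 0.103), and atg-7, with -0.19 (95% interval -0.36 to -0.03, edgeR adjusted p = 0.149). bec-1 was called without the filter on low counts (edgeR adjusted p = 0.0263). For lgg-1 the log2 difference was -0.03 (95% interval -0.18 to 0.12), for unc-51 -0.01 (95% interval -0.16 to 0.13) and for sqst-1 0.12 (95% interval -0.0036 to 0.23).

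Strain differences at L4 ran across the constructs. lgg-2 stood at 47.8, 49.1 and 48.3 CPM in 0CUG strain 1 and at 31.6, 31.2 and 33.4 CPM in 0CUG strain 2. It stood at 61.6, 53.4 and 47.8 CPM in 123CUG strain 1 and at 33.5, 31.4 and 31.5 CPM in 123CUG strain 2. In each construct strain 1 was above strain 2. Between the 0CUG strains lgg-2 was the 1 member called (log2 0.53, SE 0.103, edgeR adjusted p = 0.0105), where 1.18% of genes were called.

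sqst-1 had the same order by strain at L4, with 96.1, 96.0 and 93.6 CPM in 0CUG strain 1 and 80.7, 80.1 and 82.2 CPM in 0CUG strain 2. It stood at 124, 114 and 102 CPM in 123CUG strain 1 and at 75.7, 77.8 and 76.9 CPM in 123CUG strain 2. By pair of a 123CUG with a 0CUG strain, 2 members (bec-1 and sqst-1, both higher) were called between the strains 1, where 16.8% of genes were. Both calls were lost without the first L4 library of 123CUG strain 1 (bec-1 log2 0.21, edgeR adjusted p = 0.321; sqst-1 log2 0.24, edgeR adjusted p = 0.106) and with 24 libraries in 1 fit. That library had 9.97% rRNA, against 2.73% and 1.28% in the others of its group, and bec-1 at 66.4 CPM against 47.5 and 40.8 CPM. Between 123CUG strain 1 and 0CUG strain 2, 4 members were higher (bec-1, lgg-2, atg-18 and sqst-1; 13.6% of genes called), and between 123CUG strain 2 and 0CUG strain 1 lgg-2 was lower (8.78%). Between the strains 2, 0 members and 3.78% of genes were called by edgeR, and 1 member had an unadjusted p under 0.05. No member had the same direction of call in all 4 pairs, against 1.54% of genes, and atg-7 was the 1 member with the same sign in all 4 pairs. The 4 pairs share libraries and are not independent, and the share of all genes with the same sign in all of them was not counted. Beside this, all 6 yolk genes were lower in 123CUG at L4 (median log2 -1.40), and 4 of 9 sperm genes were lower.

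In 2-day adults, epg-2 was higher and atg-4.1, atg-16.2, bec-1 and lgg-2 were lower in 123CUG than in 0CUG animals, and unc-51, sqst-1, lgg-1, atg-7 and atg-18 were not called. Of all 14070 genes 10.1% were called, 5.74% higher and 4.33% lower in 123CUG. The median log2 difference was -0.15 over the members and 0.03 over all genes. Leaving out any 1 library left 5 members called, and DESeq2 also called atg-18 (log2 -0.18, adjusted p = 0.0486). These calls do not count the spread between lines, and adults of the 0CUG strains differed from each other in 44.6% of genes.

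epg-2 stood at 10.03, 7.09 and 5.77 CPM in 0CUG strain 1, 10.3, 12.5 and 14.1 CPM in 0CUG strain 2, 21.6, 16.7 and 19.6 CPM in 123CUG strain 1 and 15.3, 13.8 and 15.1 CPM in 123CUG strain 2. The highest 0CUG library overlapped the lowest 123CUG library. The log2 difference between constructs was 0.81 (SE 0.141, edgeR adjusted p = 0.000664), the largest in size among the members. By pair it was 1.33, 0.67 and 0.94, each called, and 0.29 between 123CUG strain 2 and 0CUG strain 2 (edgeR adjusted p = 0.33). The 0.67 call, 123CUG strain 1 against 0CUG strain 2, was lost with 24 libraries in 1 fit (edgeR adjusted p = 0.0604) and when any of 4 libraries was left out (edgeR adjusted p from 0.0696 to 0.112).

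atg-16.2 stood at 35.3, 37.6 and 33.0 CPM in 0CUG strain 1, 30.7, 31.3 and 37.4 CPM in 0CUG strain 2, 19.3, 17.1 and 26.5 CPM in 123CUG strain 1 and 22.6, 26.4 and 26.6 CPM in 123CUG strain 2. All 6 123CUG libraries were below all 6 0CUG libraries. The log2 difference was -0.57 (SE 0.108, edgeR adjusted p = 0.00149), with -0.76, -0.64 and -0.49 in 3 called pairs and -0.37 between the strains 2 (edgeR adjusted p = 0.0906). The -0.49 call, 123CUG strain 2 against 0CUG strain 1, was lost when any of 5 libraries was left out (edgeR adjusted p from 0.0717 to 0.16), and the -0.64 call when either of 2 was.

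atg-4.1 and bec-1 were lower mainly against 0CUG strain 1. atg-4.1 stood at 51.6, 56.2 and 58.1 CPM in 0CUG strain 1 and at 33.4, 35.2 and 34.4 CPM in 0CUG strain 2. It stood at 26.5, 30.6 and 30.3 CPM in 123CUG strain 1 and at 30.03, 29.2 and 21.9 CPM in 123CUG strain 2, below all 0CUG libraries. The log2 difference was -0.63 (SE 0.0907, edgeR adjusted p = 0.000105), called against 0CUG strain 1 (-0.93 and -1.04) and not against 0CUG strain 2 (-0.22 and -0.32).

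bec-1 stood at 68.4, 65.5 and 52.0 CPM in 0CUG strain 1, 46.6, 51.6 and 52.5 CPM in 0CUG strain 2, and 35.8 to 44.4 CPM in the 6 123CUG adults. The constructs did not overlap, with a log2 difference of -0.42 (SE 0.0870, edgeR adjusted p = 0.0028). An antisense non-coding gene, T19E7.24, overlaps bec-1 by 223 bases, and the sources used here do not say whether counting used strand. Opposite-strand genes also overlap atg-4.1 (Y87G2A.2, 172 bases) and epg-2 (tpxl-1, 88 bases). lgg-2 stood at 124, 124 and 125 CPM in 0CUG strain 2 and at 91.5, 87.3 and 82.8 CPM in 0CUG strain 1. In 123CUG it ran from 66.3 to 92.1 CPM. The log2 difference between constructs was -0.31 (SE 0.0748, edgeR adjusted p = 0.00903), and by pair it was -0.50 and -0.61 against 0CUG strain 2, both called, and -0.02 and -0.12 against 0CUG strain 1, neither called.

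Counted by pair of adult strains, 6 members were called between the strains 1 (27.6% of genes), 5 between 123CUG strain 1 and 0CUG strain 2 (15.3%), 5 between 123CUG strain 2 and 0CUG strain 1 (13.9%) and 3 between the strains 2 (20.3%). None of the 10 had a call of one direction in every pair, as 0.412% of genes did. The sign was the same in all 4 pairs for 7 members: epg-2 was higher and bec-1, lgg-2, atg-4.1, atg-7, atg-16.2 and atg-18 were lower. The 4 pairs share strains and libraries, so their signs are not independent. The share of all genes with the same sign in all 4 pairs was not counted. In this comparison 7 of 16 muscle genes were higher and 2 lower, 5 of 15 oocyte and early embryo genes were lower and 2 of 6 yolk genes were higher in 123CUG, and their part was not tested. Of the other autophagy machinery 1 of 19 genes rose and 1 fell, and of the lysosomal genes 1 of 28 rose and 1, vha-7, fell (log2 -0.28, SE 0.0636, edgeR adjusted p = 0.0071).

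**Figure D4:**
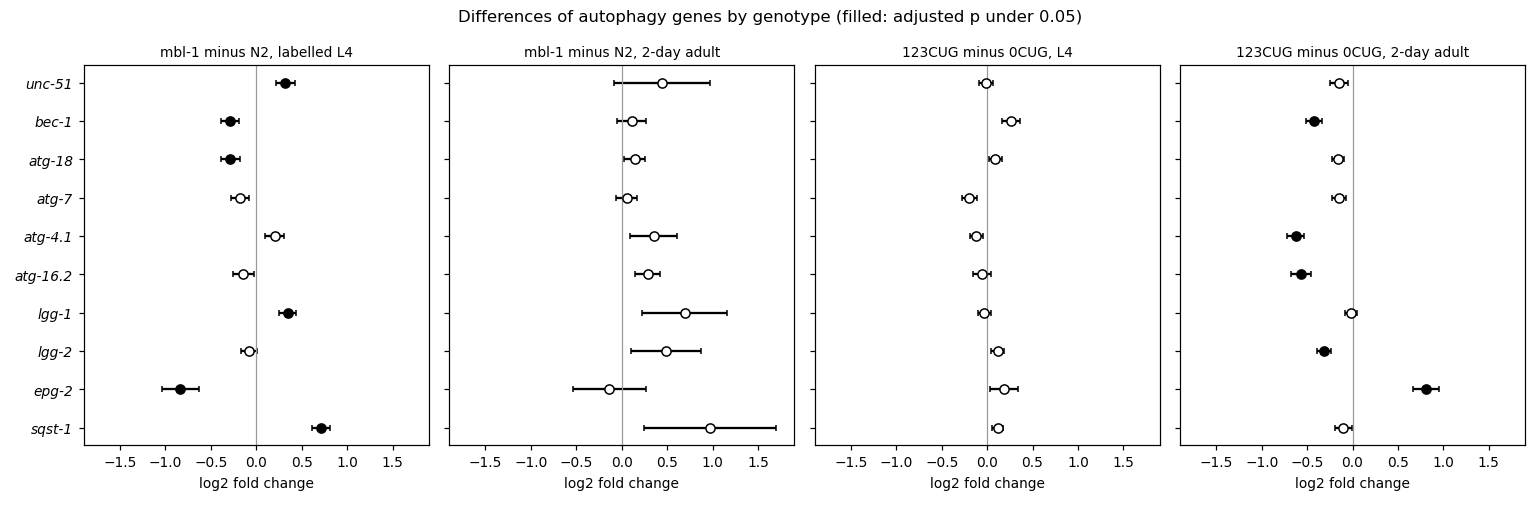
Log2 fold change with its SE for each autophagy gene in 4 comparisons, mbl-1 over N2 and 123CUG over 0CUG at each stage; filled points passed an adjusted p of 0.05. Error bars are widest for sqst-1 in mbl-1 adults (log2 0.97, SE 0.730), no point is filled for mbl-1 adults or 123CUG L4, and 5 are filled for 123CUG adults.

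The adults of the 2 0CUG strains, which carry the same construct, also differed from each other. Between 0CUG strains 1 and 2, 7 of 10 members were called, 2 higher and 5 lower in strain 1, where 44.6% of genes were called, 22.3% in each direction. unc-51 stood at 14.97, 16.17 and 15.5 CPM in 0CUG strain 1 and at 39.02, 50.1 and 52.0 CPM in 0CUG strain 2, a log2 difference of -1.57 (SE 0.138, edgeR adjusted p = 3.48e-08). It stood at 25.2, 25.7 and 21.9 CPM in 123CUG strain 1 and at 26, 23.1 and 23.6 CPM in 123CUG strain 2. All 6 123CUG libraries therefore lay between the 0CUG strains.

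sqst-1 had the same order in adults, at 44.2, 55.8 and 47.3 CPM in 0CUG strain 1 and 97.9, 117 and 108 CPM in 0CUG strain 2. It stood at 69.6, 75.6 and 70.2 CPM in 123CUG strain 1 and at 71.0, 73.6 and 45.1 CPM in 123CUG strain 2. The log2 difference between the 0CUG strains was -1.10 (SE 0.139, edgeR adjusted p = 3.69e-06), and the third library of 123CUG strain 2 fell within 0CUG strain 1. Against 0CUG strain 1, unc-51 was higher in both 123CUG strains (log2 0.63 and 0.64, edgeR adjusted p = 0.00157 and 0.00283). Against 0CUG strain 2 it was lower in both (log2 -0.94 and -0.93, edgeR adjusted p = 6e-05 and 9.77e-05).

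The remaining members called between the 0CUG strains were atg-4.1 (log2 0.72, SE 0.128, edgeR adjusted p = 0.000159), lgg-2 (-0.48, SE 0.106, edgeR adjusted p = 0.00105) and lgg-1 (-0.40, SE 0.0978, edgeR adjusted p = 0.00256). epg-2 (-0.66, edgeR adjusted p = 0.0118) and bec-1 (0.33, edgeR adjusted p = 0.0324) were each called less firmly. The epg-2 call was lost when either of 2 libraries was left out (edgeR adjusted p = 0.0514 and 0.0654), and the bec-1 call when any of 5 was (edgeR adjusted p from 0.0574 to 0.292). lgg-1, at 377, 418 and 406 CPM in 0CUG strain 1 and 497, 549 and 573 CPM in 0CUG strain 2, did not overlap between them.

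Regulatory and lysosomal genes differed between the same strains. hlh-30 stood at 20.98 ± 3.37 CPM in 0CUG strain 1 and 61.8 ± 11.2 CPM in 0CUG strain 2 (SD, n = 3; log2 -1.53, SE 0.161, edgeR adjusted p = 3.68e-07). It stood at 36.4 ± 3.23 CPM in 123CUG strain 1 and 31.5 ± 6.77 CPM in 123CUG strain 2 (SD, n = 3), between the 0CUG strains like unc-51 and sqst-1. aak-2, a catalytic subunit of the AMP-activated kinase, was lower in 0CUG strain 1 (log2 -0.77, SE 0.141, edgeR adjusted p = 0.000203). Of 19 other machinery genes 1 was higher and 6 lower there, among them epg-7 (log2 -1.20, edgeR adjusted p = 7.62e-06) and atg-2 (log2 -1.08, edgeR adjusted p = 1.84e-05). Of 28 lysosomal genes 2 were higher and 14 lower.

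The tissue lists also separated the 0CUG adults. In strain 1 all 6 intestinal and all 6 yolk genes were lower and 10 of 15 oocyte and early embryo genes higher than in strain 2. The intestinal sum was 469 to 494 CPM in strain 1 and 1059 to 1313 CPM in strain 2, and the yolk sum was 60300.0 to 74110.0 CPM against 141800.0 to 171000.0 CPM. Their part in the differences of the autophagy genes was not tested.

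**Figure D5:**
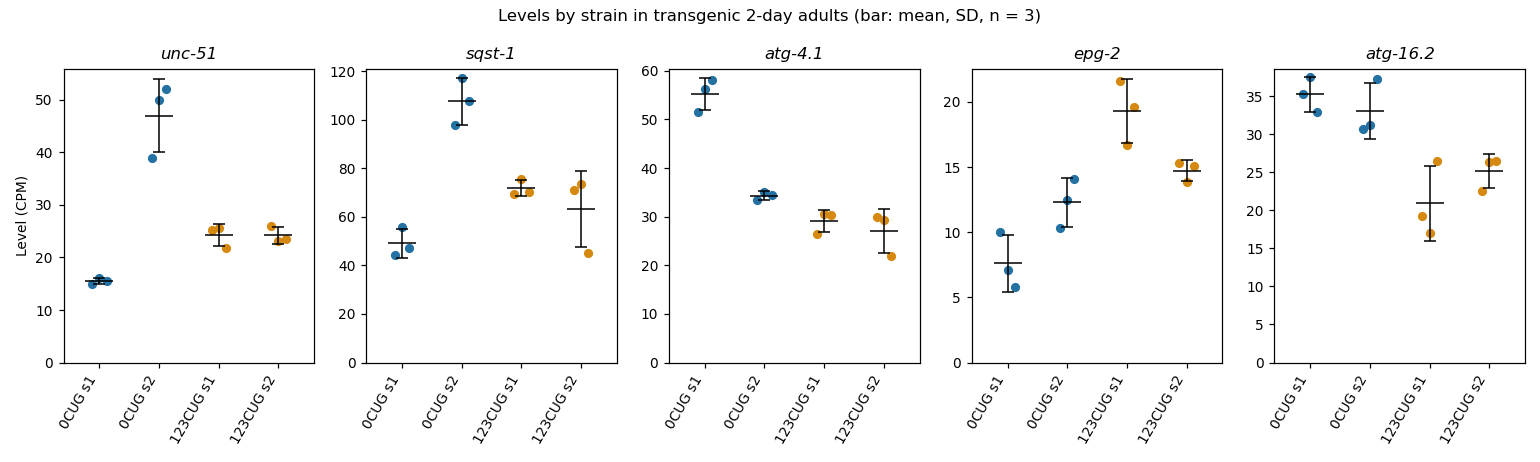
Level in CPM of 5 autophagy genes in the transgenic 2-day adults by strain (blue 0CUG, orange 123CUG; s1, s2: strain 1, strain 2), 1 point per library with the mean and SD of 3. For unc-51 and sqst-1 the 123CUG means (24.2 and 24.2 CPM, 71.8 and 63.2 CPM) lie between those of the 0CUG strains, whereas for atg-4.1, atg-16.2 and epg-2 both 123CUG means lie on one side.

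The difference between 123CUG and 0CUG changed with stage for 3 members, bec-1, atg-4.1 and lgg-2, each lower in adults relative to L4. The interaction of construct and stage was -0.66 for bec-1 (SE 0.143, edgeR adjusted p = 0.00423), -0.49 for atg-4.1 (SE 0.109, edgeR adjusted p = 0.00595) and -0.41 for lgg-2 (SE 0.101, edgeR adjusted p = 0.0133) on the log2 scale. It was called for 5.93% of genes, 3.98% higher and 1.95% lower. For bec-1 the construct difference was 0.26 at L4, not called, and -0.42 in adults. The bec-1 change from L4 to adult averages 123CUG strains whose means went opposite ways. The L4 mean of 123CUG strain 1 includes the library with 9.97% rRNA, where bec-1 stood at 66.4 CPM. atg-16.2 had an interaction of -0.49 (SE 0.155, edgeR adjusted p = 0.0611) and was called with DESeq2, RLE scaling, no filter and in 6 of the fits that left out 1 library. atg-18 was called with DESeq2. Beside this, all 6 yolk genes had a called interaction in the other direction (median log2 1.66), and 5 of 15 oocyte and early embryo genes one in the same direction, and their part was not tested.

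The genes whose group means ran most like those of lgg-1 over the 12 groups, among 9515 protein-coding genes, were Y51H4A.5 (Spearman rho 0.986), F21F3.6 (0.979) and C44H9.4 (0.958, the rho of 2 genes). For sqst-1 they were C50F7.5 (0.972), cyp-33C4 and ugt-54 (0.965 each). Among the members lgg-1 was closest to lgg-2 (0.853) and sqst-1 to unc-51 (0.734). The 12 group means share stages, strains and the scaling, so these values describe likeness and carry no p.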

How the data were processed

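Gene counts of 36 libraries were taken from 10 tables deposited by the authors, each a comparison of 2 groups with the raw counts of 6 libraries. Per the submitters' processing notes HISAT2, DESeq2 and the WBcel235 build were used; the sources used here name no counter, strand setting or annotation release. The authors' deposited log2 fold changes and adjusted p-values were used only for a comparison of calls. Counts repeated between tables were equal (465954 values, 0 different). The 500 unnamed loci, 0.0201 to 0.0643% of counts, were left out. Gene IDs were matched to symbols in Ensembl release 115 (24463 matched, 468 not), and gene lengths, which scale the RPKM, are the files' own.

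Tests used edgeR 4.0.16 (quasi-likelihood F test, TMM, filterByExpr, robust) in R 4.3.3, with p-values adjusted by Benjamini-Hochberg across every gene tested and a call at an adjusted p under 0.05. Fits held the groups of 1 comparison: 6 libraries for mbl-1 against N2 at a stage, 12 for the transgenic strains at a stage, with each construct the mean of its strains, and 12 or 24 for stage and interaction. The scripts were tested on simulated data. Of the 2-fold changes set in, 8.25% were recovered for mbl-1 against N2 adults and 55.2 to 80.4% for the other comparisons simulated. False calls were 12.3% of the calls for mbl-1 against N2 adults and 4.44% for the libraries labelled L4. They were 8.18% and 8.54% for 123CUG against 0CUG at L4 and in adults, and 1.45% for stage in 0CUG. Alternatives were RLE scaling, no filter, DESeq2 1.42.0, a replicate block, 1 fit over all stages, leaving out each library, and leaving out the third adult library of N2 together with the third of mbl-1.

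The members and the gene lists (other machinery, regulators, lysosome, tissue markers) were chosen with earlier results of these data known. From each pathway list and comparison at most 2 called rises and 2 called falls could be named, those with the largest log2 difference among genes of at least 5 CPM whose groups did not overlap. sepa-1, with no count in 1 group, is given by its levels. Of the 20 other machinery symbols atg-11 and of the 7 intestinal symbols opt-2 had no match. epg-5 is on both the machinery and the lysosome list. Spearman correlations used log2 of CPM plus 1 over the 12 group means. Promoter and protein sequences were not analysed here.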

Additional observations from a re-analysis of the deposited data

Results flagged for a closer look

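A test of the difference itself, the interaction of construct and stage, set apart 3 members. The 123CUG minus 0CUG difference moved by -0.66 on the log2 scale from L4 to adult for bec-1, by -0.49 for atg-4.1 and by -0.41 for lgg-2 (edgeR adjusted p = 0.00423, 0.00595 and 0.0133). In adults the bec-1 and atg-4.1 differences lay mainly against 0CUG strain 1 and the lgg-2 difference against 0CUG strain 2. With DESeq2, atg-16.2 (-0.53, adjusted p = 0.0172) and atg-18 (-0.28, adjusted p = 0.0152) were called as well. No explanation was tested.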

How the results depend on the processing

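Of the member values, 929 kept their call and direction under the alternatives other than leaving out 1 library, 15 lost and 36 gained a call, and none of these reversed. With 1 library left out, 1617 kept it, 47 lost and 16 gained a call.

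Counts of members called moved in these cases, apart from pairs of a 123CUG with a 0CUG strain. For mbl-1 against N2 labelled L4 the 6 calls became 0 with all 12 libraries in 1 fit, where 856 genes were higher and 140 lower against 3941 and 2880. Without the third adult libraries, 5 members were called in mbl-1 against N2 adults, 6 for the stage difference of the mbl-1 effect and 8 for the stage change in mbl-1, against 0 each. Those libraries were left out partly for their levels of these genes, so these counts are a description and not a test. DESeq2 called 1 member for the stage change in mbl-1 and 5 for the interaction of construct and stage. It called 5 for mbl-1 against N2 labelled L4, where unc-51 was lost, and it added atg-18 in 123CUG against 0CUG adults. It lost atg-16.2 for stage in 123CUG, as did RLE scaling. For 123CUG against 0CUG at L4, 1 member was called with no filter. Between the 0CUG adults bec-1 lost its call with no filter and with all 24 libraries in 1 fit. For stage in 0CUG sqst-1 lost its call with no filter. For the interaction of construct and stage atg-16.2 gained a call with RLE scaling and with no filter. Beyond the different library sets and filters, the cause was not tested.

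Leaving out each library in turn gave 2 to 7 members for mbl-1 against N2 labelled L4 and 0 to 1 for 123CUG against 0CUG at L4. It gave 1 between the 0CUG strains at L4, 5 for 123CUG against 0CUG adults, and 5 to 6 between the 0CUG adults. It gave 7 to 9 for stage in 0CUG, 8 to 9 for stage in 123CUG, and 3 to 4 for the interaction. It gave 0 for mbl-1 against N2 adults, for the stage difference of the mbl-1 effect, and for stage in N2 and in mbl-1. Where a group was left with 2 libraries the spread was still shared with the other groups.

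Over all genes, counts moved by over 1.5 times in these cases. Without the third adult libraries, 0 became 4416 in mbl-1 against N2 adults, 1 became 879 for the stage difference of the mbl-1 effect and 79 became 2946 for stage in mbl-1. In mbl-1 against N2 adults, 0 genes became 108 with DESeq2 and 79 with 12 libraries in 1 fit. Between 0CUG strains at L4, 191 became 714 with no filter, 562 with DESeq2 and 484 with 24 libraries, and 105 to 333 with 1 library left out. In 123CUG against 0CUG adults, 1416 became 2172 without the third library of 123CUG strain 2 and 937 without the first of 0CUG strain 1. For 123CUG against 0CUG at L4, 2342 became 1522 with 24 libraries. For the interaction of construct and stage, 1022 became 1556 with DESeq2. For stage in mbl-1, 79 became 630 with DESeq2 and 44 with RLE scaling, and 1 to 162 with 1 library left out. For the stage difference of the mbl-1 effect, 1 became 141 with DESeq2, 64 without the third N2 adult library and 5 without the third mbl-1 adult library. For stage in N2, 0 became 13 with DESeq2. Among the strain pairs, the moves past 1.5 times at L4 were between the strains 1 (2718, to 1794 at lowest), 123CUG strain 1 against 0CUG strain 2 (2201, to 1360 at lowest), 123CUG strain 2 against 0CUG strain 1 (1423, to 867 at lowest) and between the strains 2 (612, to 1002 with no filter). In adults they were 3887 to 2565, 2146 to 1218 and, between the strains 2, 2858 to 1371 at lowest, and for 123CUG strain 2 against 0CUG strain 1 from 1961 to between 1179 and 3112.

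The replicate numbers do not pair the libraries: deviations of same-numbered libraries correlated at a median of 0.002 (lowest -0.67, highest 0.23), with 3 of 102 pairs over 0.1. With a replicate block the number of members called was 6, 0, 0 and 5 in the 4 genotype comparisons, as without it, and for stage in mbl-1 the genes called went from 79 to 1.

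The authors' deposited table gives 5 members with an adjusted p under 0.05 for mbl-1 against N2 labelled L4, where unc-51 is at 0.052. With 3 libraries a group, some small differences were called and others could not be told from the spread. Larger ones could not be told from it where a library stood apart from its group, as for sqst-1 in mbl-1 against N2 adults (SE 0.73).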
